A study of Mus musculus with 6 samples.

Results

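The nuclear-encoded genes for the subunits of oxidative phosphorylation were chosen by symbol, as protein-coding mouse genes of the families Nduf (complex I), Sdh (complex II), Uqcr (complex III), Cox4 to Cox8 (complex IV) and Atp5 (complex V). This rule gave 84 of the 39059 genes counted: 37 for complex I, 4 for complex II, 8 for complex III, 18 for complex IV and 17 for complex V. The rule itself uses no expression value, though earlier results of these data were known when the families were chosen. The libraries came from satellite cells, muscle stem cells that lie between the fibre and its basal lamina. The cells were taken from hind limbs and sorted by flow cytometry, and their total RNA was sequenced after removal of ribosomal RNA. 3 libraries came from Lmna Δ8-11 -/- mice (HOM), homozygous for a deletion in Lmna, which encodes lamins A and C of the nuclear envelope, and 3 from Lmna Δ8-11 +/+ mice (WT). All were on the C57BL/6J background at postnatal day 19. The labels name no promoter or Cre, so the allele is taken as present throughout the animal, and the sorted HOM cells came from mutant muscle. They mention 3 mice per condition but tie no library to an animal, so p-values measure the spread between these libraries, which may be technical.

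Oxidative phosphorylation takes place in the inner mitochondrial membrane. Complexes I and II pass electrons from NADH and succinate to ubiquinone, complex III passes them on to cytochrome c, and complex IV hands them to oxygen. Complexes I, III and IV pump protons as they do so, and complex V, the ATP synthase, lets the protons back through a rotor that drives ATP synthesis. All subunits of complex II and most subunits of the others are encoded in the nucleus, while the mitochondrial genome encodes a few membrane subunits of complexes I, III, IV and V. Quiescent satellite cells are known for a low metabolic rate with few mitochondria, and activated, dividing ones for more mitochondrial mass.

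Many promoters of these genes carry sites for NRF1, ETS-family factors, YY1 or oestrogen-related receptors. RefSeq promoter windows of 300 bases on GRCm38.p6, which surround the annotated start, were matched by symbol for 66 of the 84 genes. Letters were searched on both strands. The NRF1 palindrome, read as GCGCA and GCGC with any 1 base between them, was present in 25.8% of the 66 genes, against 5.19% of all 27025 genes with an entry. The ETS core CCGGAAG was present in 24.2% against 9.93%, the YY1 element AAGATGGC in 13.6% against 3.19%, and the oestrogen-related receptor element TCAAGGTCA in 3.03% against 0.466%. The ETS core lies inside none of the other 3 strings. Below stands, for each complex, the gene with the smallest p among those lower in HOM libraries whose window holds such a string. For complex IV no such window is shown. The windows are Ndufs4 at chr13:114388045-114388344, Sdha at chr13:74350191-74350490, Uqcr11 at chr10:80406772-80407071 and Atp5c1 at chr2:10080383-10080682, all on the minus strand, and capitals mark the strings. Sequences run 5′ to 3′ along the gene.
Ndufs4: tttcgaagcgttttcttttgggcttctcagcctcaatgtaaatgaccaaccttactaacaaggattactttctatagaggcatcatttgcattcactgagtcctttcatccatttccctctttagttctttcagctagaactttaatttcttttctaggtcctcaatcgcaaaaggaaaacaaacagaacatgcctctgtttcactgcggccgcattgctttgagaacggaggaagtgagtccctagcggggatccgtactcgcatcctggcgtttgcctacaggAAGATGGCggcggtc
Sdha: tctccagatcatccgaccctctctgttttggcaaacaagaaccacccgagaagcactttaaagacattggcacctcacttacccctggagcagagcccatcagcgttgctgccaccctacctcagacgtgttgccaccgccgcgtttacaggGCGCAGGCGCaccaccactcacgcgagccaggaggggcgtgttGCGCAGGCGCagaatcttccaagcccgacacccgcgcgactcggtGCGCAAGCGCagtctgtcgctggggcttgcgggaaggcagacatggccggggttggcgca
Uqcr11: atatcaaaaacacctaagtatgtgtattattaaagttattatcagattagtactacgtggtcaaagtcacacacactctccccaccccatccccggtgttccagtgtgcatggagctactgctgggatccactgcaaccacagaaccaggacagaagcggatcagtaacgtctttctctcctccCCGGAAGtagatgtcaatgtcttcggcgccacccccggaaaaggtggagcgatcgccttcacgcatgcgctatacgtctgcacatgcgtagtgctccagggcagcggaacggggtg
Atp5c1: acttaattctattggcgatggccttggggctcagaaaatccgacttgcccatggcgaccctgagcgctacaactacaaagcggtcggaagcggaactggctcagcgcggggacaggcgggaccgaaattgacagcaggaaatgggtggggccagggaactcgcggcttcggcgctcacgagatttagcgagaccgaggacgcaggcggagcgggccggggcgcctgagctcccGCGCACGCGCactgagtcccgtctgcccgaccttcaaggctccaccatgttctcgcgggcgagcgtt

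In these windows Ndufs4 has a YY1 element just downstream of its annotated start, Sdha has 3 NRF1 palindromes, Uqcr11 has an ETS core and Atp5c1 has an NRF1 palindrome. At least 1 of the strings was found in 9 of the 15 genes with an entry that were lower in HOM libraries (60%), in 27 of the 50 other tested genes of the families with an entry (54%) and in 16.8% of all genes. A match describes the letters and does not show that a factor binds.

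Reads assigned to genes numbered 7234298 to 9552751 in HOM and 6613636 to 8426578 in WT libraries. Levels are given as counts per 1000000 reads in genes (CPM) on TMM-scaled totals, and values for 3 libraries are listed as replicates 1, 2 and 3. Lmna itself stood at 436, 375 and 451 CPM in HOM libraries, against 842, 939 and 1057 CPM in WT libraries, and was lower in HOM (log2 fold change -1.17, SE 0.14, adjusted p = 0.0010). The count covers the whole gene, including exons that the deletion leaves in place, and is therefore only a partial check of the labels. WT replicate 2 stood apart on the oxidative phosphorylation genes: it was the highest WT library for 79 of 81 tested genes, while 38% of all genes were highest there among WT libraries. Relative to the mean of WT replicates 1 and 3, its median level over the 81 genes was 1.49-fold, against 1.0-fold over all genes tested. The same library had 141 CPM of Mki67, a marker of dividing cells, against 50.7 and 43.2 CPM in WT replicates 1 and 3 and 8.95, 12.0 and 9.16 CPM in HOM libraries. Gm42418, a gene overlapping ribosomal RNA, was high in HOM replicate 2 and WT replicate 2, at 13027 and 13900 CPM on unscaled totals, against 914 to 1796.5 CPM in the other 4 libraries. Mki67 and Gm42418 were picked after their values were seen. Because of this library, counts, sums and called genes of the complexes are given below with and without WT replicate 2.

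Of the 84 genes, 81 had enough reads to be tested. With edgeR's quasi-likelihood test and Benjamini-Hochberg adjustment over 14099 genes, 20 of the 81 were lower in HOM libraries at an adjusted p under 0.05 (24.7%, against 11.5% of all genes tested), and 0 were higher (against 9.67%). Of the 20, Cox7a1 passed the filter on low counts only through the WT libraries and the other 19 did not depend on 1 group. DESeq2 called 27 lower and 0 higher (against 9.64% and 7.27% of all genes it tested). At an unadjusted p under 0.05 in edgeR's test, 41 genes were lower and 0 higher. The share of all genes at that threshold is not given here, so the 41 are not read as an excess. The log2 fold change was below 0 for 73 of the 81 genes (90.1%, against 50.4% of all genes), with a median of -0.38 against -0.00 for all genes. All HOM libraries lay below all WT libraries for 37 of the 81 genes (45.7%, against 20.6% of all genes), and all HOM libraries lay above all WT libraries for none (against 20.2%). Without WT replicate 2, the number called lower was 8 of 81 (9.88%, against 7.06% of all genes), the median was -0.19 against 0.01 for all genes, and 60 genes were below 0. The same 37 genes then had all HOM libraries below both remaining WT libraries (45.7%, against 24.7% of all genes). Counts of 6 of the 20 called genes are uncertain to the extent that their exons overlap another gene (Ndufb5, Ndufs1, Uqcrb, Cox6c, Atp5a1 and Atp5g2). In bulk RNA, fewer cells of a type and less RNA per cell cannot be told apart.

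**Figure D1:**
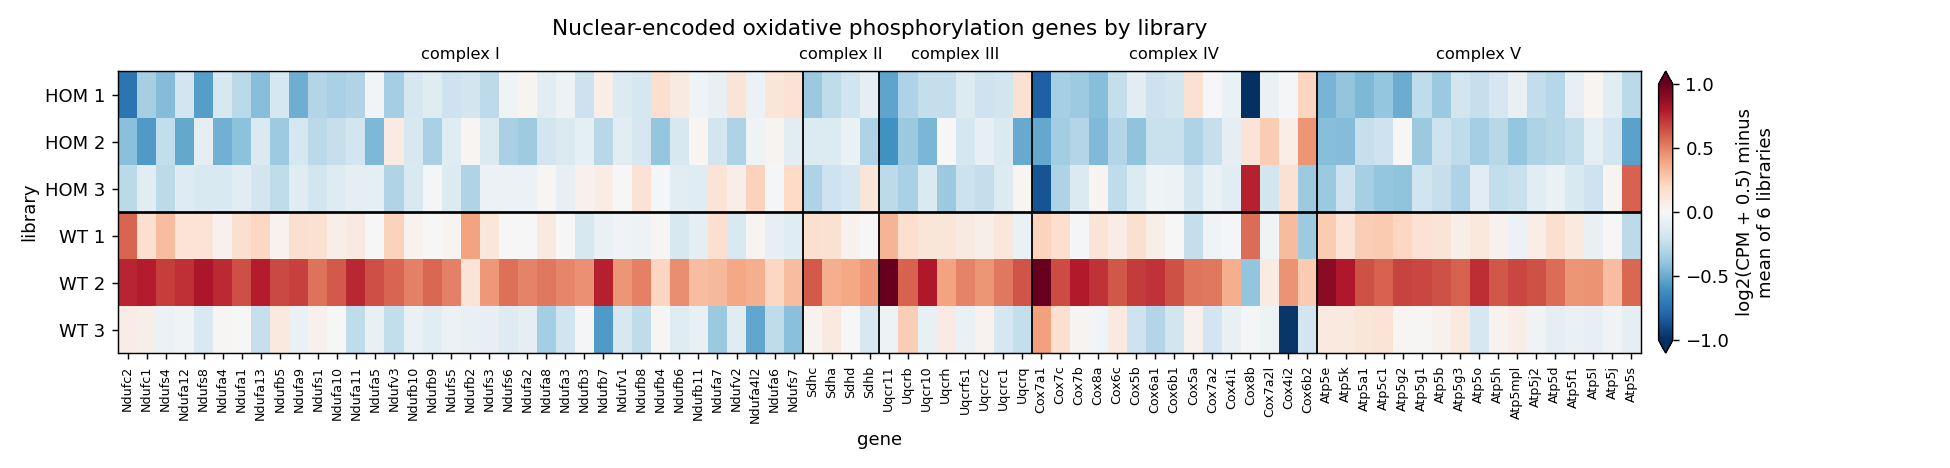
Level of the tested genes reported here in each library, as log2(CPM + 0.5) minus the gene's mean over the 6 libraries, with HOM libraries above WT libraries and genes ordered by complex. WT replicate 2 is the highest of the 6 libraries for 76 of the 81 tested genes, and WT replicates 1 and 3 lie nearer to the HOM libraries.

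The smallest count came without HOM replicate 1, with 5 of the 81 genes called lower, a share near the 6.08% of all genes. The largest came without WT replicate 3, with 30 of the 81 (against 8.29%). Out of the same 81, the count was 18 without HOM replicate 2 (against 15.4%), 7 without HOM replicate 3 (against 6.11%) and 12 without WT replicate 1 (against 6.55%). A core of 5 genes, Ndufc2, Uqcrb, Cox7c, Atp5c1 and Atp5e, was called in all 6 fits that each left out 1 library. These come from complexes I, III, IV and V. The other 15 called genes include 6 called in 3 to 5 of the fits and 9 called in 1 or 2. The log2 fold change stayed below 0 in all 6 fits for 59 of the 81 genes.

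Complex V had the largest number of genes lower in HOM libraries, 8 of 17 tested (47.1%, against 11.5% of all genes). For complexes I to IV together it was 12 of 64 (18.8%). Without WT replicate 2 it was 4 of 17 (23.5%) for complex V and 4 of 64 (6.25%) for complexes I to IV, against 7.06% of all genes. This difference between complexes was not tested. The summed level of complex V was 1846, 1959 and 1953 CPM in HOM libraries, against 2565, 3556 and 2387 CPM in WT libraries. The groups did not overlap, and the mean was 0.677 times that of WT, or 0.775 times without WT replicate 2. Most of this sum came from Atp5b, with means of 636 CPM in HOM and 940 CPM in WT libraries, and Atp5a1, with 420 and 676 CPM. Complex I summed to 1355, 1278 and 1435 CPM in HOM libraries, against 1524, 2113 and 1339 CPM in WT libraries, and these groups overlapped (0.818 times, or 0.947 without WT replicate 2). Complex II summed to 261, 279 and 275 CPM in HOM libraries, against 338, 423 and 317 CPM in WT libraries (0.757 times, or 0.830 without WT replicate 2). Complex III summed to 498, 509 and 491 CPM in HOM libraries, against 633, 866 and 584 CPM in WT libraries (0.719 times, or 0.821 without WT replicate 2). Complex IV summed to 1020.4, 1015 and 1053 CPM in HOM libraries, against 1176.5, 1664 and 1094 CPM in WT libraries (0.785 times, or 0.907 without WT replicate 2). Thus HOM libraries lay below every WT library for complexes II, III, IV and V, and their 3 values stayed close together in each complex.

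**Figure D2:**
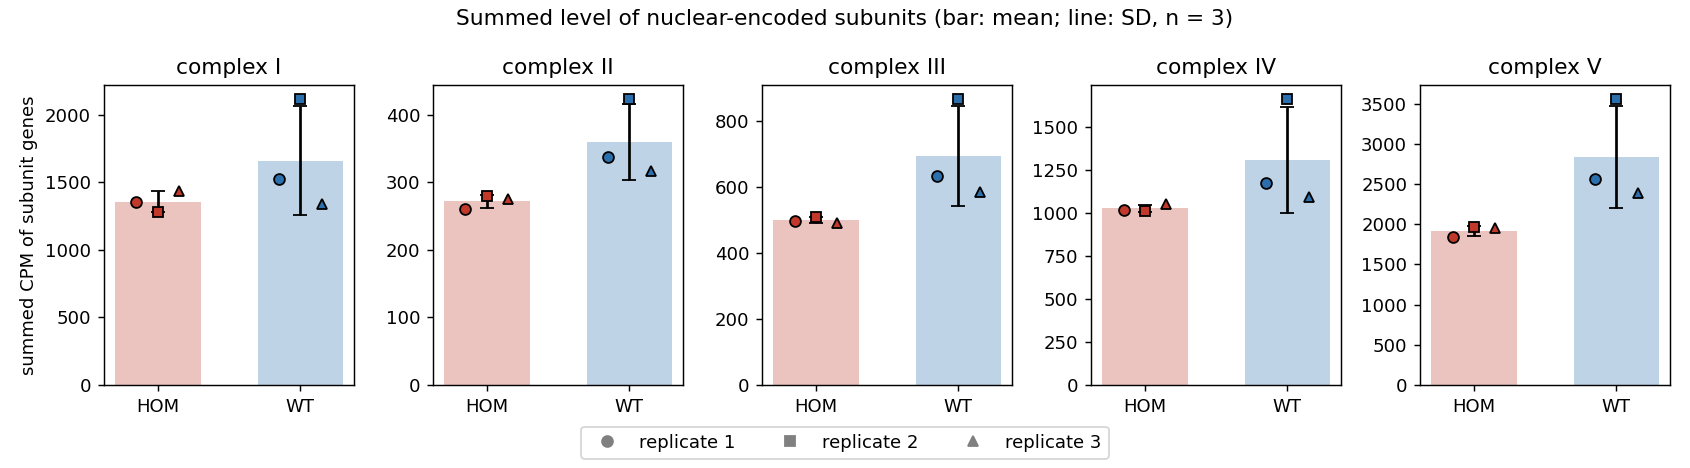
Summed CPM of the genes of each complex in each library, with HOM left of WT; bars are means and lines SD over 3 libraries. The 3 HOM libraries lie below the 3 WT libraries for complexes II to V and overlap WT for complex I, where WT replicate 3 is at 1339 CPM.

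The balance between complexes also differed. The summed level of complex V divided by that of complex I was 1.36, 1.53 and 1.36 in HOM libraries, against 1.68, 1.68 and 1.78 in WT libraries. Divided by that of complex IV it was 1.81, 1.93 and 1.85 in HOM libraries, against 2.18, 2.14 and 2.18 in WT libraries. Neither ratio overlapped between genotypes, and WT replicate 2 lay close to another WT library in both. The ratio to complex II was 7.07, 7.01 and 7.10 in HOM libraries, against 7.59, 8.41 and 7.52 in WT libraries, and that to complex III was 3.71, 3.85 and 3.98 in HOM libraries, against 4.05, 4.10 and 4.09 in WT libraries. These are descriptions of sums over chosen genes and carry no p. Atp5b and Atp5a1 make up most of the complex V sum, so the ratios depend largely on these genes.

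Complex I, the NADH dehydrogenase, has a peripheral arm that holds the flavin and iron-sulphur clusters and a membrane arm that pumps protons. 5 of its 37 genes were lower in HOM libraries (13.5%, near the 11.5% of all genes), 33 were below 0, and the median log2 fold change was -0.33. Among the 7 core subunits of the peripheral arm only Ndufs1 passed the test, and their median was -0.18, or 0.02 without WT replicate 2. Ndufs1, the large iron-sulphur protein, had 65.0, 66.2 and 70.3 CPM in HOM libraries, against 88.9, 117 and 82.4 CPM in WT libraries (log2 fold change -0.51, SE 0.14, adjusted p = 0.0265). The groups did not overlap.

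The clearest complex I change was in Ndufc2, an accessory subunit of the membrane arm at chr7:97400003-97407802. It had 12.9, 16.1 and 17.9 CPM in HOM libraries, against 32.8, 37.2 and 22.9 CPM in WT libraries, a mean of 15.6 ± 2.57 CPM against 30.9 ± 7.34 CPM (SD, n = 3 libraries each; log2 fold change -0.98, SE 0.20, adjusted p = 0.00838 by edgeR). Every HOM library lay below every WT library, and the adjusted p was 0.0354 without WT replicate 2. Its membrane arm neighbour Ndufc1 had 13.4, 11.3 and 15.7 CPM in HOM libraries, against 19.2, 29.7 and 17.8 CPM in WT libraries (log2 fold change -0.72, SE 0.22, adjusted p = 0.0414). Ndufs4, a late-assembled subunit of the peripheral arm whose loss causes Leigh syndrome in people, had 17.1, 19.5 and 19.2 CPM in HOM libraries, against 28.9, 37.8 and 22.2 CPM in WT libraries (log2 fold change -0.67, SE 0.19, adjusted p = 0.0322). Both had non-overlapping groups. Of the 10 tested Ndufb genes, which build the distal membrane arm, Ndufb5 alone passed, with 40.8, 35.8 and 38.7 CPM in HOM libraries, against 47.3, 73.3 and 49.4 CPM in WT libraries (log2 fold change -0.56, SE 0.17, adjusted p = 0.0419). The median of the Ndufb genes was -0.20, or -0.04 without WT replicate 2.

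Ndufc2 was the complex I gene called in every fit that left out 1 library. Without WT replicate 2 the adjusted p was 0.133 for Ndufc1, 0.104 for Ndufs4, 0.104 for Ndufb5 and 0.0722 for Ndufs1. These 4 genes also missed the threshold without HOM replicate 1 (adjusted p of 0.108, 0.106, 0.0835 and 0.0853) and without HOM replicate 3 (0.0581, 0.0795, 0.103 and 0.0625). Without WT replicate 1, Ndufb5 passed and the other 3 did not (0.0648 for Ndufc1, 0.0827 for Ndufs4 and 0.0549 for Ndufs1), and without HOM replicate 2 neither Ndufc1 nor Ndufb5 did (0.0702 and 0.0595). The count of complex I genes was 9 without WT replicate 3 and 1 to 3 without any other single library. The median of complex I was -0.12 without WT replicate 2, against 0.01 for all genes.

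Ndufa4 is a subunit first assigned to complex I and now placed with complex IV, and Ndufa4l2 is its relative, a target of hypoxia-inducible factor. Ndufa4 had 42.1, 33.7 and 42.3 CPM in HOM libraries, against 48.6, 79.3 and 47.5 CPM in WT libraries (log2 fold change -0.57, SE 0.20, adjusted p = 0.0671). Ndufa4l2 had 40.6, 40.8 and 49.6 CPM in HOM libraries, against 42.9, 54.4 and 29.2 CPM in WT libraries (log2 fold change 0.05, SE 0.20, adjusted p = 0.871). Ndufa4 was the most abundant complex I gene per length over all 6 libraries, at 87.1 ± 10.8 CPM per kilobase in HOM and 129 ± 40.0 in WT libraries, and Ndufs4 the least over all 6, at 11.0 ± 0.79 in HOM and 17.5 ± 4.61 in WT libraries (SD, n = 3 libraries each). Ndufa4 values did not overlap while those of Ndufa4l2 did, and neither gene passed the test. Per kilobase of transcript, the level of Ndufa4l2 relative to Ndufa4 was 0.466, 0.586 and 0.568 in HOM libraries, against 0.427, 0.332 and 0.298 in WT libraries. Every HOM library lay above every WT library on this ratio, which was not tested.

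Complex II, succinate dehydrogenase, also serves the tricarboxylic acid cycle. 2 of its 4 genes were lower in HOM libraries (50%, against 11.5% of all genes), 1 catalytic and 1 membrane anchor. Sdha, the flavoprotein that oxidises succinate, had 127, 137 and 131 CPM in HOM libraries, against 169, 196 and 161 CPM in WT libraries (log2 fold change -0.41, SE 0.12, adjusted p = 0.0325). Sdhc, an anchor that binds haem and quinone, had 57.6, 68.0 and 60.2 CPM in HOM libraries, against 83.7, 115 and 76.6 CPM in WT libraries (log2 fold change -0.56, SE 0.16, adjusted p = 0.0294). Neither gene's groups overlapped. For Sdhd, the other anchor, the log2 fold change was -0.30 (SE 0.13, adjusted p = 0.140). Per kilobase, Sdha was the most abundant complex II gene, at 45.4 CPM in HOM and 60.3 in WT libraries, and Sdhc the least, at 19.5 in HOM and 28.9 in WT libraries. Sdhb, the iron-sulphur subunit, had 41.5, 35.6 and 48.2 CPM in HOM libraries, against 44.1, 59.8 and 39.4 CPM in WT libraries (log2 fold change -0.19, SE 0.17, adjusted p = 0.460), and its values overlapped. The calls of Sdha and Sdhc were lost without WT replicate 2 (adjusted p of 0.0933 and 0.0799), without HOM replicate 1 (0.110 and 0.0998), without HOM replicate 3 (0.104 and 0.0896) and without WT replicate 1 (0.0788 and 0.0562).

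Complex III, the cytochrome bc1 complex, had all 8 genes below 0. 2 of them were lower in HOM libraries (25%, against 11.5% of all genes), both among the 5 small subunits. Uqcrb, a small subunit beside the quinone pocket at chr13:66900617-66905378, had 46.6, 44.5 and 45.9 CPM in HOM libraries, against 64.9, 87.0 and 68.6 CPM in WT libraries. The mean was 45.7 ± 1.05 CPM in HOM and 73.5 ± 11.8 CPM in WT libraries (SD, n = 3 libraries each; log2 fold change -0.68, SE 0.13, adjusted p = 0.00637 by edgeR). It had the smallest adjusted p of the 81 genes, and 0.0182 without WT replicate 2. Uqcr11, the smallest subunit of the mature complex, had 33.7, 31.9 and 40.7 CPM in HOM libraries, against 62.0, 106 and 47.2 CPM in WT libraries (log2 fold change -1.01, SE 0.25, adjusted p = 0.0198). Its groups did not overlap, its log2 fold change was -0.63 without WT replicate 2 (adjusted p = 0.0405), and its call was lost without HOM replicate 1 (adjusted p = 0.0680), which left Uqcrb as the 1 complex III gene called.

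The other complex III genes did not pass the test. Uqcrh, the hinge protein that docks cytochrome c1, was the most abundant per length, at 247 ± 32.4 CPM per kilobase in HOM and 326 ± 40.1 in WT libraries (SD, n = 3 libraries each; log2 fold change -0.40, adjusted p = 0.0613). Uqcrfs1, the Rieske iron-sulphur protein, was the least abundant, at 38.8 ± 1.03 CPM per kilobase in HOM and 50.2 ± 10.5 in WT libraries (log2 fold change -0.37, adjusted p = 0.0986). The core proteins Uqcrc1 and Uqcrc2 had log2 fold changes of -0.34 and -0.36 (adjusted p of 0.152 and 0.0764). Uqcr10 had -0.61 (adjusted p = 0.0627) and Uqcrq -0.24 (adjusted p = 0.501). Cyc1, the cytochrome c1 subunit whose symbol lies outside the rule, had -0.37 (SE 0.20, adjusted p = 0.217). All HOM libraries lay below all WT libraries for 6 of the 8 genes (75%, against 20.6% of all genes).

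Complex IV, cytochrome c oxidase, has subunits made in every tissue and others with heart, muscle, lung or testis forms. Of the 10 broadly made genes, all 10 were below 0, 2 were lower in HOM libraries (20%, against 11.5% of all genes) and the median was -0.43. Without WT replicate 2, 9 of the 10 were below 0, 1 was called lower and the median was -0.13. Of the 5 tested tissue forms and relatives, 1 was lower and the median was 0.02, or 0 and 0.06 without WT replicate 2. The 1 was Cox7a1, which passed the filter on low counts only through the WT libraries, so that its direction was fixed beforehand. Cox7c, a small subunit present in all tissues, had 63.5, 62.8 and 64.3 CPM in HOM libraries, against 90.0, 126 and 89.3 CPM in WT libraries (log2 fold change -0.68, SE 0.14, adjusted p = 0.00988). Cox6c, another such subunit, had 97.5, 93.9 and 96.6 CPM in HOM libraries, against 121, 177 and 124 CPM in WT libraries (log2 fold change -0.55, SE 0.15, adjusted p = 0.0283). In both genes the HOM libraries lay within 4 CPM of each other and below all WT libraries. Without WT replicate 2, Cox7c had a log2 fold change of -0.50 (adjusted p = 0.0220) and Cox6c one of -0.35 (adjusted p = 0.0633). Cox6c also missed the threshold without HOM replicate 1 (adjusted p = 0.0781) and without HOM replicate 3 (0.0819). In each of these 3 fits Cox7c was the 1 complex IV gene called.

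Cox7a1 is the heart and skeletal muscle form of subunit 7a. It rests on few reads, 3, 6 and 3 in HOM libraries, against 12, 27 and 13 in WT libraries, and it alone of the 81 genes passed the filter on low counts only through the WT libraries. A tested Cox7a1 therefore had to be lower in HOM, and without it 19 genes were called. Its level was 0.483 ± 0.133 CPM in HOM and 2.44 ± 1.61 CPM in WT libraries (SD, n = 3 libraries each; log2 fold change -2.22, SE 0.56, adjusted p = 0.0203 by edgeR). The groups did not overlap, but the adjusted p was 0.0633 without WT replicate 2, 0.0671 without HOM replicate 1 and 0.0679 without HOM replicate 3. The broadly made partner Cox7a2 had 83.5, 71.2 and 80.0 CPM in HOM libraries, against 81.9, 121 and 73.4 CPM in WT libraries (log2 fold change -0.23, SE 0.18, adjusted p = 0.364). Per kilobase, Cox7a1 made up 0.836%, 1.48% and 0.817% of the sum of both genes in HOM libraries, against 2.76%, 5.60% and 3.63% in WT libraries. The summed level of muscle fibre markers was 54.7, 77.2 and 90.9 CPM in HOM libraries, against 178, 189 and 112 CPM in WT libraries. HOM replicate 3 had the highest of these HOM sums. Its Cox7a1 level was 0.393 CPM, from 3 reads, as many as in HOM replicate 1. Of 14 markers tested, 9 were below 0 and 5 were called lower (35.7%, against 11.5% of all genes), or 4 without WT replicate 2. Among these markers, Myh2 passed the filter on low counts only through the WT libraries. Ckmt2 was under 10 reads in each group. The part of muscle fibre RNA in the Cox7a1 result was not tested.

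The other paralogues did not pass the test. Cox4i1, the broadly made regulatory subunit and the most abundant complex IV gene per length, had 223, 219 and 216 CPM in HOM libraries, against 231, 300.5 and 222 CPM in WT libraries (log2 fold change -0.20, SE 0.14, adjusted p = 0.335). Cox4i2, its lung and hypoxia-linked form, had 10.1, 10.7 and 11.4 CPM in HOM libraries, against 12.8, 14.1 and 4.95 CPM in WT libraries (log2 fold change 0.02, SE 0.32, adjusted p = 0.976). WT replicate 3 set the low end of the Cox4i2 values, and without it the log2 fold change was -0.33. Cox7a2l, a factor of supercomplexes of complexes III and IV, had 148, 185 and 136 CPM in HOM libraries, against 151, 164 and 149 CPM in WT libraries (log2 fold change 0.02, SE 0.13, adjusted p = 0.946). Cox6a1 had a log2 fold change of -0.38 (adjusted p = 0.229), Cox6b1 of -0.34 (adjusted p = 0.224) and Cox8a of -0.58 (adjusted p = 0.0682). Cox6b2, the testis form of subunit 6b, had 3.36, 4.03 and 2.09 CPM in HOM libraries, against 2.08, 3.50 and 2.41 CPM in WT libraries (log2 fold change 0.28, SE 0.34, adjusted p = 0.587).

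Forms restricted to other tissues were low. Cox8b, the heart and muscle form of subunit 8 in mice, had 0.420, 1.59 and 2.75 CPM in HOM libraries, against 2.31, 0.954 and 1.40 CPM in WT libraries, and the groups overlapped. Cox6a2, the heart and muscle form of subunit 6a, had 1, 0 and 3 reads in HOM libraries, against 2, 1 and 1 reads in WT libraries. Cox8c had 1 read in HOM and 0 in WT libraries, and Cox7b2, a testis form, had 0 reads in both. A count of 0 over a group of libraries allows up to 3 reads, or 0.124 CPM in HOM and 0.132 CPM in WT libraries. Cox6a2, Cox7b2 and Cox8c were not tested for lack of reads. Per kilobase, the broadly made forms were far above their relatives in both groups, as with Cox8a at 217 and Cox8b at 4.41 CPM per kilobase in HOM libraries, against 324 and 4.32 in WT libraries.

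**Figure D3:**
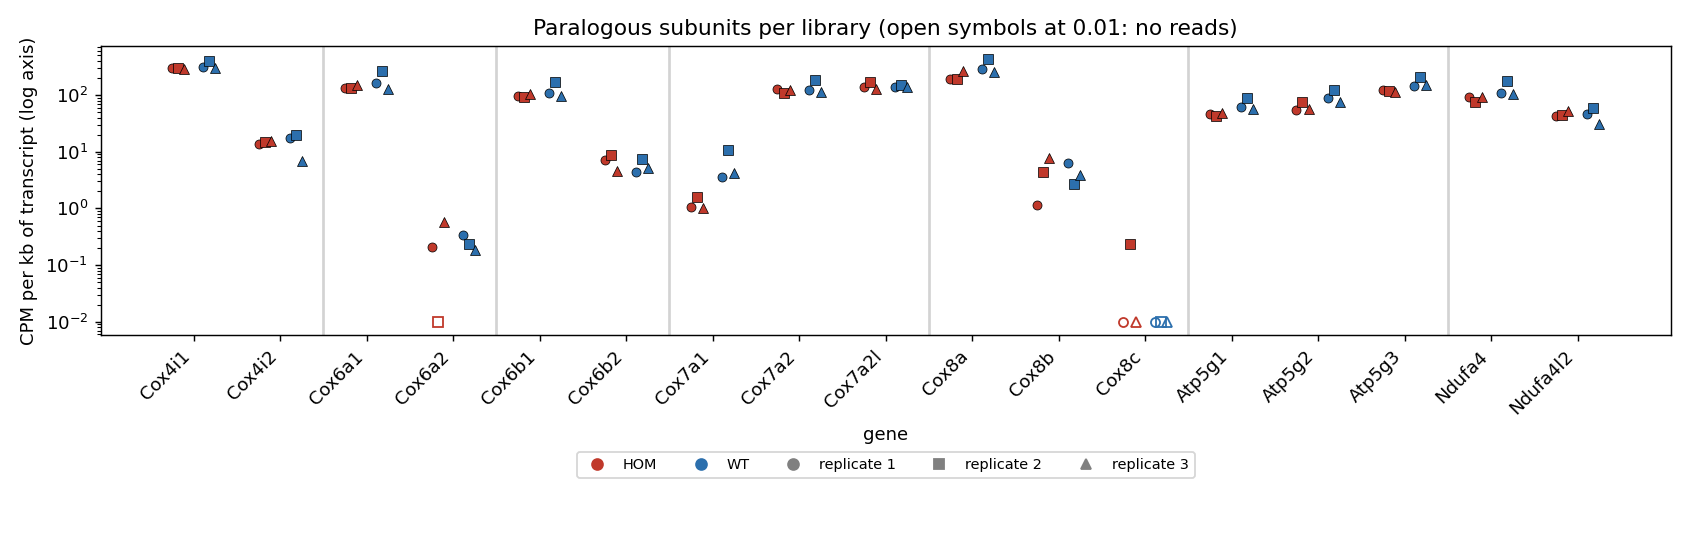
CPM per kilobase of transcript (log axis) for paralogous subunits in each library, with HOM left of WT for each gene; open symbols at 0.01 stand for 0 reads. Cox7a1 averages 1.23 in HOM and 6.22 in WT libraries, with separate groups. It has 3, 6 and 3 reads in HOM libraries and passed the filter on low counts only through WT. Atp5g1, Atp5g2, Atp5g3 and Ndufa4 also have separate groups, while Cox4i2, Cox6b2, Cox7a2l, Cox8b and Ndufa4l2 overlap.

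Complex V had all 17 genes below 0, with a median of -0.50, or -0.27 without WT replicate 2. All HOM libraries lay below all WT libraries for 12 of the 17 (70.6%, against 20.6% of all genes). The catalytic F1 part, which holds the head and central stalk, had 4 of 5 genes lower in HOM libraries and a median of -0.67. Without WT replicate 2 it had 3 of 5 lower and a median of -0.52. Atp5e, the epsilon subunit of the central stalk, had 43.9, 45.2 and 46.7 CPM in HOM libraries, against 72.6, 114 and 65.1 CPM in WT libraries (log2 fold change -0.88, SE 0.19, adjusted p = 0.0103). Atp5c1, the gamma subunit that turns inside the head, lies at chr2:10056016-10080510 and had 107, 121 and 107 CPM in HOM libraries, against 168, 211 and 154 CPM in WT libraries (log2 fold change -0.67, SE 0.14, adjusted p = 0.00907). Both had non-overlapping groups, and both were called without any 1 of the 6 libraries. Without WT replicate 2 their log2 fold changes were -0.60 and -0.52 (adjusted p of 0.0154 and 0.0267).

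The alpha and beta subunits form the catalytic hexamer. Atp5a1, the alpha subunit, had 387, 452 and 422 CPM in HOM libraries, against 629, 822 and 576 CPM in WT libraries (log2 fold change -0.68, SE 0.16, adjusted p = 0.0140). Atp5b, the beta subunit with the catalytic sites, had 591, 664 and 654 CPM in HOM libraries, against 839, 1191 and 788 CPM in WT libraries (log2 fold change -0.56, SE 0.17, adjusted p = 0.0426). The groups overlapped for neither gene, and Atp5b had the highest level per length of the 81 genes, 332 ± 20.6 CPM per kilobase in HOM and 490.3 ± 115 in WT libraries (SD, n = 3 libraries each). Without WT replicate 2 the adjusted p was 0.0387 for Atp5a1 and 0.114 for Atp5b. Atp5a1 missed the threshold without HOM replicate 1 (0.0604) or HOM replicate 3 (0.0513), and Atp5b also without HOM replicate 1 (0.140), HOM replicate 3 (0.103) or WT replicate 1 (0.0682). Atp5d, the delta subunit of the central stalk, had a log2 fold change of -0.44 and did not pass (adjusted p = 0.0756).

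The proton-driven c-ring is made of 1 mature protein encoded by 3 genes, Atp5g1, Atp5g2 and Atp5g3, and all 3 were lower in HOM libraries. Atp5g3, the most abundant of them per length, had 88.0, 83.4 and 80.6 CPM in HOM libraries, against 104, 150.2 and 107 CPM in WT libraries (log2 fold change -0.52, SE 0.15, adjusted p = 0.0329). Atp5g1 had 28.0, 25.8 and 28.9 CPM in HOM libraries, against 36.9, 53.3 and 33.6 CPM in WT libraries (log2 fold change -0.58, SE 0.17, adjusted p = 0.0391). Atp5g2 had 23.6, 33.4 and 25.3 CPM in HOM libraries, against 38.7, 53.7 and 33.9 CPM in WT libraries (log2 fold change -0.61, SE 0.19, adjusted p = 0.0484). The groups overlapped for none of the 3 genes. The mix of the 3 genes, per length, overlapped between genotypes, with Atp5g3 at 52.1 ± 2.78% of their sum in HOM and 50.7 ± 1.88% in WT libraries (SD, n = 3 libraries each). None of the 3 was called without WT replicate 2 (adjusted p of 0.0814 for Atp5g3, 0.108 for Atp5g1 and 0.163 for Atp5g2), without HOM replicate 1 (0.0744, 0.0963 and 0.155) or without HOM replicate 3 (0.106, 0.0846 and 0.141). Atp5g1 was called only without WT replicate 3 (0.0322) among the fits that left out 1 library, and Atp5g2 missed the threshold without WT replicate 1 (0.0877).

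The rest of complex V holds the head in place or shapes the membrane. Atp5k, the membrane subunit e that takes part in dimers of the enzyme, had 30.1, 29.4 and 34.4 CPM in HOM libraries, against 43.9, 69.5 and 42.5 CPM in WT libraries (log2 fold change -0.73, SE 0.19, adjusted p = 0.0227). Its groups did not overlap, and its adjusted p was 0.0497 without WT replicate 2 and 0.0739 without HOM replicate 1. None of the 4 peripheral stalk genes passed in edgeR's test, with log2 fold changes of -0.50 for Atp5o, -0.49 for Atp5h, -0.33 for Atp5f1 and -0.19 for Atp5j (adjusted p of 0.107, 0.0522, 0.120 and 0.313). The membrane subunits Atp5mpl, Atp5j2 and Atp5l had -0.49, -0.48 and -0.21 (adjusted p of 0.0885, 0.0737 and 0.356). Atp5s, a coupling factor and no structural subunit, had 2.52, 2.01 and 4.97 CPM in HOM libraries, against 2.55, 4.93 and 2.92 CPM in WT libraries (log2 fold change -0.12, SE 0.40, adjusted p = 0.859). The number of complex V genes called was 2 without HOM replicate 1, 3 without HOM replicate 3, 5 without WT replicate 1, 4 without WT replicate 2 and 12 without WT replicate 3.

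**Figure D4:**
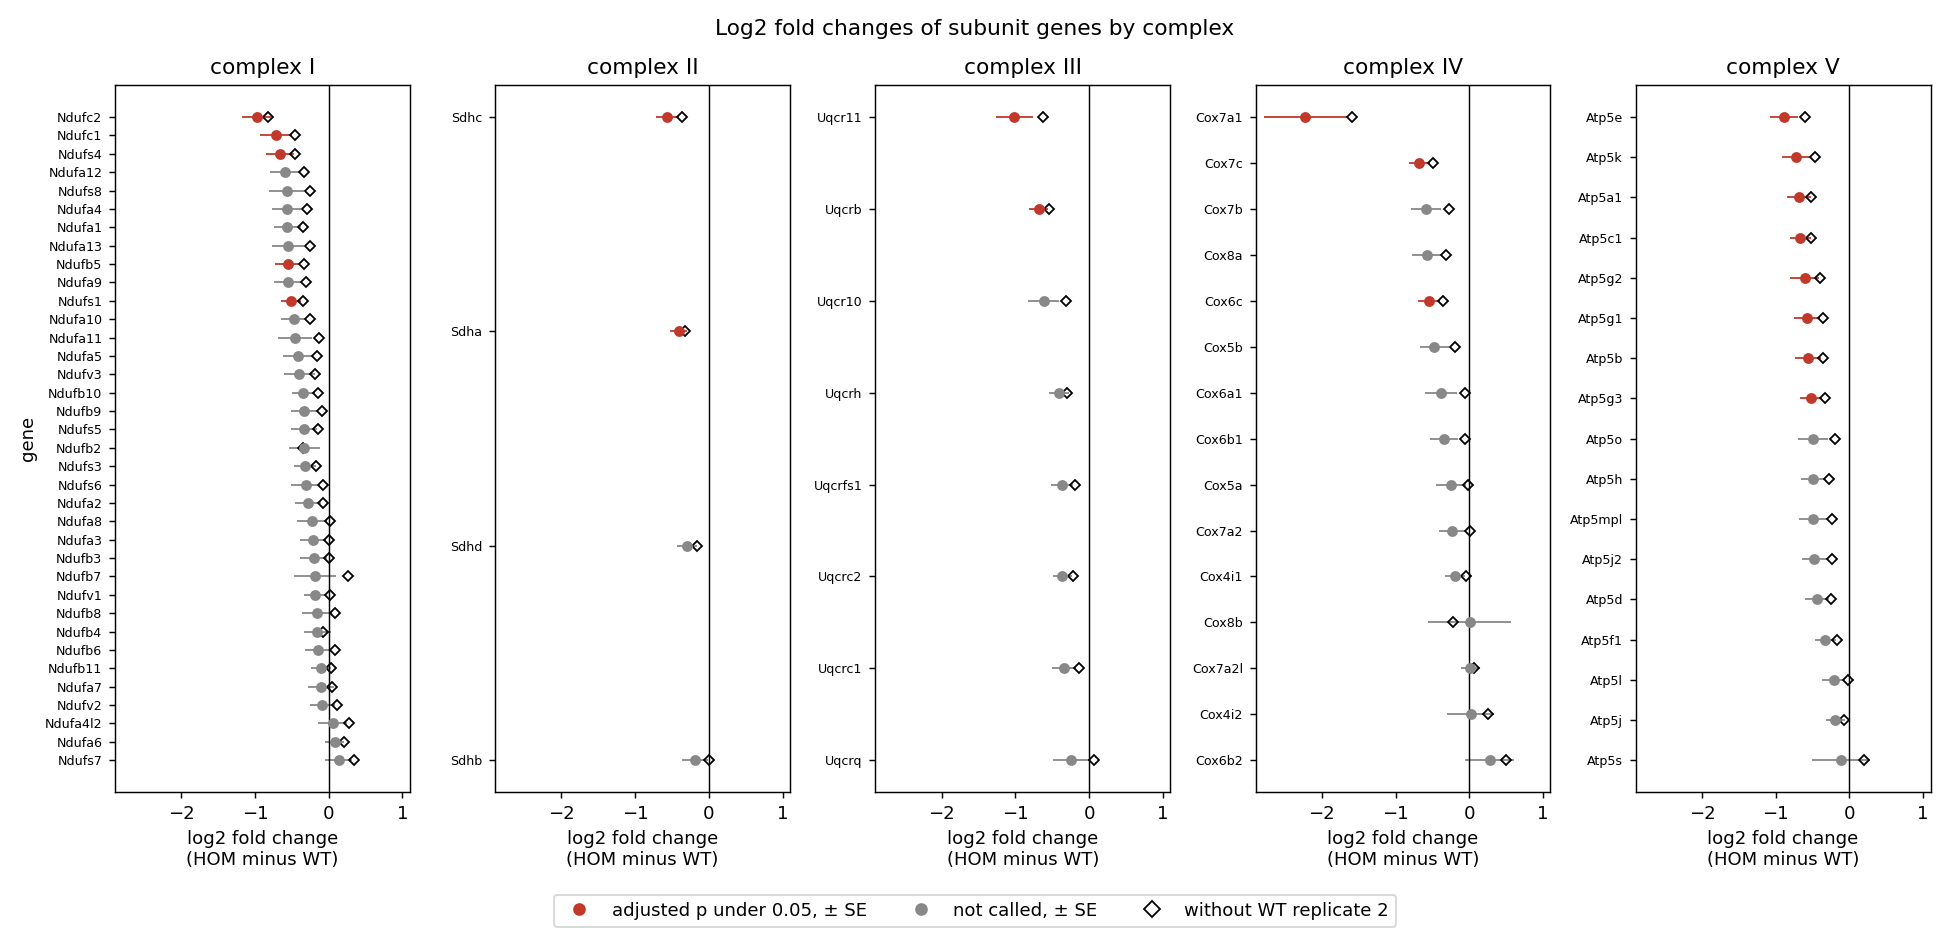
Log2 fold change (HOM minus WT) of the tested genes reported here with their SE, by complex; red points have an adjusted p under 0.05 and open diamonds give the value without WT replicate 2. All complex V values lie below 0, with a median of -0.50, and most diamonds lie to the right of their points.

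The genes around the complexes did not all move with them. The 13 subunits encoded by the mitochondrial genome had 7 tested, all 7 below 0 with a median of -0.36, and 0 called in edgeR's test, with 3 lower at an unadjusted p under 0.05 and 2 lower by DESeq2. The other 6 were at or near 0 reads in every library, under 1 CPM. The gene mt-Co1, for the catalytic subunit of complex IV, had 5809.6, 6434 and 5749 CPM in HOM libraries, against 7291, 8459 and 7374 CPM in WT libraries (log2 fold change -0.36, SE 0.16, adjusted p = 0.137). Its groups did not overlap. Of the 50 assembly factors of the complexes, 48 were tested and 0 called in either direction by edgeR or DESeq2. At an unadjusted p under 0.05, 5 of them were lower and 2 higher, and their median was -0.13.

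The tricarboxylic acid cycle feeds NADH and succinate to the chain. The list used for it has 24 genes and also includes subunits of pyruvate dehydrogenase and their kinases and phosphatases, which are not cycle enzymes. Of the 24 genes, 7 were lower and 2 higher in HOM libraries (29.2% lower, against 11.5% of all genes). These counts were 1 lower and 2 higher without WT replicate 2 (against 7.06% lower and 5.38% higher of all genes). The 2 higher genes regulate pyruvate dehydrogenase in opposite directions: Pdk2, a kinase that inhibits it, had 22.0, 25.4 and 23.2 CPM in HOM libraries, against 17.0, 13.8 and 13.7 CPM in WT libraries (log2 fold change 0.66, SE 0.15, adjusted p = 0.0133). Pdp2, a phosphatase that activates it, had 34.8, 43.9 and 35.9 CPM in HOM libraries, against 24.8, 23.7 and 24.6 CPM in WT libraries (log2 fold change 0.65, SE 0.13, adjusted p = 0.00833).

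Genes for the export of ATP and the leak of protons had 2 of 8 tested lower (25%, against 11.5% of all genes) and all 8 below 0. Slc25a4, the muscle and heart form of the ADP/ATP carrier, had 179, 219 and 177 CPM in HOM libraries, against 299, 401 and 279.7 CPM in WT libraries (log2 fold change -0.77, SE 0.16, adjusted p = 0.00968). Ucp2, an uncoupling protein relative that carries metabolites, had 9.09, 17.4 and 9.69 CPM in HOM libraries, against 38.7, 22.9 and 33.5 CPM in WT libraries (log2 fold change -1.38, SE 0.27, adjusted p = 0.00655). Both had non-overlapping groups and were called without WT replicate 2, and for Ucp2 that library was the lowest of the WT group. Protein import had 2 of 26 tested lower (7.69%, against 11.5% of all genes) and 0 higher (against 9.67%), with a median of -0.02. DESeq2 called 1 lower and 0 higher, and 3 were lower and 2 higher at an unadjusted p under 0.05. The 2 called by edgeR, Timm21 and Timm17b, were not called without WT replicate 2.

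Electron carriers and coenzyme Q synthesis had 1 of 23 tested lower (4.35%, against 11.5% of all genes) and 3 higher (13%, against 9.67%), with the same counts without WT replicate 2. Coq10b, which binds coenzyme Q for its use in the chain, had 155, 151 and 159 CPM in HOM libraries, against 243, 271 and 252 CPM in WT libraries (log2 fold change -0.72, SE 0.11, adjusted p = 0.00252). Coq8a and Coq8b, atypical kinases of the coenzyme Q synthesis complex, were both higher. Coq8a had 52.4, 83.9 and 60.7 CPM in HOM libraries, against 37.7, 29.7 and 31.9 CPM in WT libraries (log2 fold change 0.99, SE 0.18, adjusted p = 0.00515). Coq8b had 20.8, 21.8 and 21.9 CPM in HOM libraries, against 11.6, 11.6 and 13.7 CPM in WT libraries (log2 fold change 0.81, SE 0.15, adjusted p = 0.00515). The groups overlapped for none of these 3 genes. Cycs, cytochrome c, had a log2 fold change of -0.23 and did not pass (SE 0.14, adjusted p = 0.279).

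Regulators of mitochondrial gene expression had 2 of 20 tested lower (10%, against 11.5% of all genes) and 3 higher (15%, against 9.67%), and 2 lower and 1 higher without WT replicate 2. Ppargc1a, a coactivator that raises respiratory genes in muscle and brown fat, had 8.81, 13.5 and 10.2 CPM in HOM libraries, against 19.2, 16.7 and 18.9 CPM in WT libraries (log2 fold change -0.75, SE 0.19, adjusted p = 0.0190). Esrrg, an oestrogen-related receptor that acts with it, had 0.280, 0.318 and 0.262 CPM in HOM libraries, against 2.78, 4.29 and 3.56 CPM in WT libraries (log2 fold change -3.53, SE 0.41, adjusted p = 8.6e-04). It had 2, 3 and 2 reads in HOM libraries, against 24, 27 and 28 in WT libraries, and passed the filter on low counts only through WT, so that a tested Esrrg had to be lower in HOM. Neither gene's groups overlapped, and WT replicate 2 was the lowest WT library for Ppargc1a. Without WT replicate 2 the adjusted p was 0.0371 for Ppargc1a and 0.00543 for Esrrg. Ppargc1a missed the threshold without HOM replicate 1 (0.0678), HOM replicate 3 (0.0669), WT replicate 1 (0.0716) or WT replicate 3 (0.0561). Polg, the catalytic subunit of the mitochondrial DNA polymerase, was higher, with 115, 123 and 139 CPM in HOM libraries, against 86.6, 77.3 and 89.0 CPM in WT libraries (log2 fold change 0.57, SE 0.12, adjusted p = 0.00821).

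Esrrg belongs to the receptors whose element was searched for in the promoters. The other factors of those strings that are given here did not pass the test. Nrf1 had 47.6, 45.7 and 47.1 CPM in HOM libraries, against 38.8, 32.1 and 39.4 CPM in WT libraries, with all HOM libraries above all WT libraries (log2 fold change 0.35, SE 0.12, adjusted p = 0.0673). For Gabpa, the ETS-family factor of respiratory genes, the log2 fold change was 0.04 (SE 0.12, adjusted p = 0.844). Esrra had -0.46 (SE 0.23, adjusted p = 0.191), Ppargc1b -0.43 (SE 0.30, adjusted p = 0.333) and Tfam, the packaging and transcription factor of mitochondrial DNA, -0.26 (SE 0.14, adjusted p = 0.207).

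**Figure D5:**
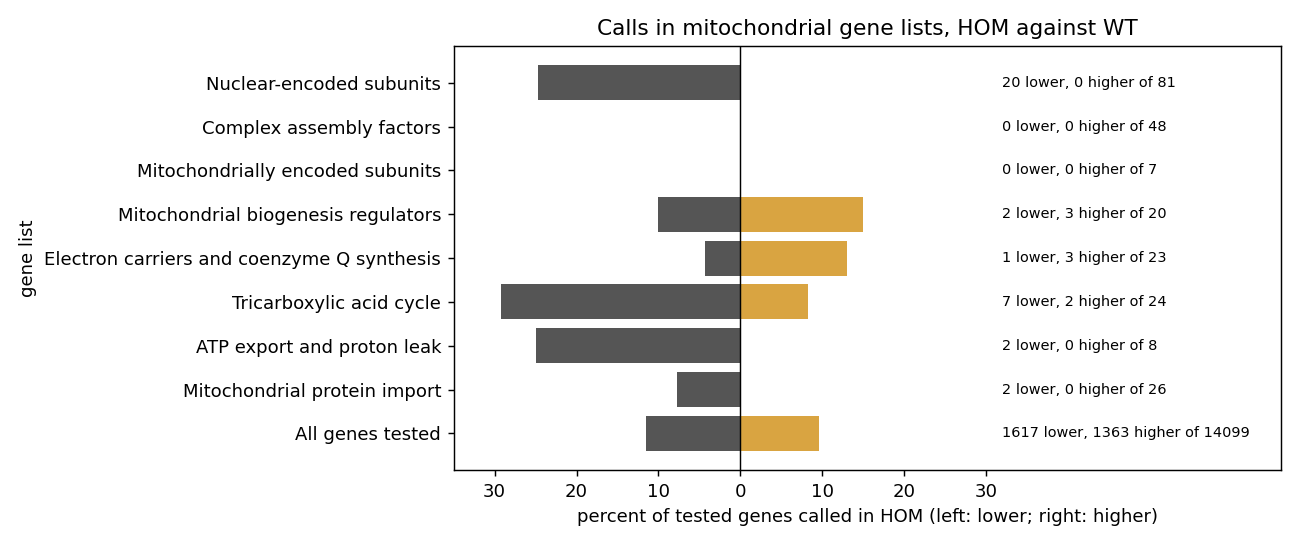
Percent of tested genes called lower (left) and higher (right) in HOM libraries, for the oxidative phosphorylation genes, the other mitochondrial gene lists and all genes tested. The tricarboxylic acid cycle list, which includes pyruvate dehydrogenase and its regulators, is at 29.2% lower. The oxidative phosphorylation genes are at 24.7%, against 11.5% of all genes, while the assembly factors are at 0%. Without WT replicate 2, not drawn, 1 of 24 genes of the cycle list was lower. So were 8 of 81 oxidative phosphorylation genes (9.88%), against 7.06% of all genes.

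Markers of some cell types also differed between the groups. Of all genes tested, 11.5% were lower in HOM libraries and 9.67% higher, or 7.06% and 5.38% without WT replicate 2. Satellite cell markers summed to 1370, 2139.5 and 1357 CPM in HOM libraries, against 2646, 2559 and 2715 CPM in WT libraries, and 7 of 10 were lower (5 without WT replicate 2). Markers of fibro-adipogenic progenitors, the connective tissue stem cells of muscle, summed to 2016, 3094 and 1897.5 CPM in HOM libraries, against 5951, 6067 and 5759 CPM in WT libraries, with 7 of 10 lower and 1 higher (6 and 0 without WT replicate 2). Of the progenitor markers, Pi16 passed the filter on low counts only through the WT libraries. In both lists the groups did not overlap and HOM replicate 2 was the highest HOM library. Adipocyte markers summed to 745, 739.7 and 1405 CPM in HOM libraries, against 421, 298 and 362 CPM in WT libraries, with 5 of 8 tested. All 5 were higher (4 without WT replicate 2), but Adipoq, Cidec and Cfd passed the filter on low counts only through the HOM libraries, so that count is no result. Adipoq, Plin1, Cidec, Cfd and Retn, which define the type, each had under 10 reads over the WT libraries, and Lep had 0 reads in HOM and 1 in WT libraries.

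Markers of pericytes and smooth muscle were abundant and overlapped, at 14081, 13722 and 13344 CPM in HOM libraries, against 14752, 17113 and 12106 CPM in WT libraries. Of 12 tested, 1 was lower and 3 higher (8.33% and 25%, against 11.5% and 9.67% of all genes), or 0 and 3 without WT replicate 2. Endothelial markers summed to 427, 755 and 519 CPM in HOM libraries, against 796, 513 and 620 CPM in WT libraries. Of the 10 tested, 0 were called by edgeR or DESeq2, and 1 was higher at an unadjusted p under 0.05. The log2 fold change was below 0 for 9 of the 10 (against 50.4% of all genes). Their median was -0.34, or -0.53 without WT replicate 2. Macrophage markers summed to 37.1, 56.6 and 56.9 CPM in HOM libraries, against 58.3, 40.7 and 66.8 CPM in WT libraries, with 1 of 9 higher (11.1%, near the 9.67% of all genes). These 3 lists overlapped between genotypes. Erythroid markers, whose cells lose mitochondria as they mature, summed to 270.2, 880.2 and 216 CPM in HOM libraries, against 892, 1465 and 1584 CPM in WT libraries. Of 6 tested, 3 were lower by edgeR (50%, against 11.5% of all genes), 1 by DESeq2 and 0 by edgeR without WT replicate 2. Brown adipocyte markers summed to 12.4, 11.8 and 15.4 CPM in HOM libraries, against 11.3, 13.4 and 11.0 CPM in WT libraries. Of the 2 tested, 0 were called by edgeR or DESeq2 and 0 had an unadjusted p under 0.05, and Ucp1, which defines the type, was at or under 0.318 CPM in HOM and 0.636 CPM in WT libraries. Dividing cells, satellite cells and these other types differ in their mitochondrial content, and the part of the cell mix in the oxidative phosphorylation results was not tested.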

How the data were processed

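Each library has a table of raw counts for Ensembl identifiers, as the authors deposited it. The submitters' processing notes name HTSeq 0.6.1, STAR 2.5.2b, Trimmomatic 0.32 and the mm10 build. What each tool did, the strand setting and the annotation release were not given in the sources used here. The kit was stranded, per the labels' protocols. Of 39059 identifiers, 38861 matched GENCODE M21, which gave symbols. Summary lines (45 to 49.8% of the reads in a file) were left out. 28 of the 84 genes share exon bases with another gene, 26 of them on the opposite strand, so their counts are uncertain to that extent.

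Counts were tested in R 4.3.3 with edgeR 4.0.16 (filterByExpr, minimum count 10 and total 15; TMM factors; quasi-likelihood test without covariates; Benjamini-Hochberg over 14099 genes, threshold 0.05). The SE of a log2 fold change (HOM minus WT) is its size over the square root of F. Levels per length divide CPM by the shortest principal transcript of M21; for Atp5g1 and Ndufb2 these transcripts differ widely in length, which leaves their level per length uncertain. Libraries of 1 genotype differed by more than sampling noise in every pair (chi-square of 8.35 to 22.5 per gene). On simulated counts for 13884 genes the test recovered 72% of 2-fold and 96% of 4-fold changes, with 2.89% false calls. In it 100 genes were changed at each fold, while 2980 genes were called in the data. Smaller changes, such as the median of -0.38 of the oxidative phosphorylation genes, were not simulated, so these rates do not describe them. Floors cover counting error only. A comparison of 3 against 3 libraries cannot give an exact permutation p below 0.1, so single values were given without one.

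The genes and lists were chosen with earlier results of these data known. Named genes are Lmna, the called genes of each complex with the smallest p (up to 6, or 4 for complexes II and III), the paralogous subunits, the most and least abundant gene of each complex per length, up to 3 called genes per mitochondrial list, and Ppargc1a, Ppargc1b, Nrf1, Gabpa, Esrra, Tfam and Cycs. The other genes given with values, and the grouping of subunits by role, were chosen after values were seen. Some genes under this rule are not reported here. Alternatives were DESeq2 1.42.0 (Wald test, and its size factors in edgeR), library totals, scaling without 257 mitochondrial, ribosomal protein, histone and haemoglobin genes, omission of the low-count filter, a minimum of 1 CPM in 3 libraries, the replicate number as a block, and omission of each library. Omission of HOM replicate 2 and WT replicate 2 together was added after seeing the data.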

Additional observations from a re-analysis of the deposited data

How the results depend on the processing

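The number of oxidative phosphorylation genes lower in HOM libraries was 20 of 81 tested. With no filter on low counts it was 39 (against 9.14% of all genes), and 5 to 30 when 1 library was left out. Without HOM replicate 2 and WT replicate 2 it was 12, a share near the 15.1% of all genes. It was 27 by DESeq2, 20 with DESeq2 size factors, 21 with library totals, 21 without the 257 genes and 20 with the 1 CPM filter. No gene of the 84 was called higher under any of these settings. The number of all genes called was 2980, and 1576 to 4002 when 1 library was left out. Libraries with the same replicate number did not deviate together (correlations of -0.0359, 0.0224 and -0.0962), and with the replicate number as a block 15 of the genes were lower (against 10% of all genes) and 2437 of all genes were called. When 1 library was left out, the median log2 fold change ran from -0.45 to -0.12 for complex I, -0.42 to -0.24 for complex II, -0.49 to -0.26 for complex III, -0.50 to -0.058 for complex IV and -0.62 to -0.27 for complex V. Without HOM replicate 2 and WT replicate 2 it was -0.0335 for complex I, -0.083 for complex IV and -0.25 for complex V.

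Directions that reversed were of genes not called. When 1 library was left out, log2 fold changes ran from -0.59 to 0.20 for Atp5s, -0.38 to 0.01 for Cox7a2, -0.33 to 0.26 for Cox4i2, -0.12 to 0.11 for Cox7a2l, -0.58 to 0.43 for Cox8b, -0.15 to 0.27 for Ndufa4l2, -0.039 to 0.12 for Gabpa and -0.30 to -0.10 for Cycs. Without HOM replicate 2 and WT replicate 2, Atp5s was at 0.46, Cox7a2 at 0.070, Cox7a2l at -0.083, Cox8b at -0.21, Ndufa4l2 at 0.32, Gabpa at -0.014 and Cycs at 0.0053. Cox8b was at -0.0033 with no filter and -0.039 with the block. The cause was not tested for any of these.

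With 3 libraries per genotype, genes of a few reads, such as Cox7a1 and Cox8b, are measured with wide error.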
